A study of Mus musculus with 12 samples.

Results

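The α- and β-tubulin genes followed here encode the subunits of microtubules, and 10 of them were read from the lungs of LPS-treated mice: Tuba1a, Tuba1b and Tuba1c for α-tubulin, and Tubb2a, Tubb2b, Tubb3, Tubb4a, Tubb4b, Tubb5 and Tubb6 for β-tubulin. They were taken by gene name, 10 of the 55414 genes in the expression table, and all 10 passed the filter on low values (at least 1 TPM in at least 6 libraries). Of these, 9 were taken as members of the family, whereas Tubb4a was chosen for its lower level in the knockout lungs, so that its difference between genotypes is described without support from a test. The values that chose it are the TPM of the same 12 lungs given below.

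Whole lungs were collected from C57BL/6J mice on day 4 after 50 µg of LPS, a component of the bacterial outer membrane used to induce acute lung injury. The IL-10 B-KO group (the knockouts, n = 6) came from a cross of mice with loxP-flanked Il10 alleles with Mb1-Cre mice, in which Cre is made from the B cell gene Cd79a, and the IL-10 B-WT group (n = 6) held the corresponding controls. Whether the controls carried Cre or the loxP-flanked alleles is not given in the sources used here. All 12 mice received LPS, so no untreated level is known, and the labels give no age. The RNA-seq values are TPM, a measure of transcript abundance that divides out transcript length and gives each library the same total, and 1 lung is 1 library.

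α- and β-tubulin join into dimers that polymerize into the hollow filaments of the cytoskeleton, the mitotic spindle and the cilium. Vertebrates hold several genes, termed isotypes, for each subunit. Their proteins are nearly alike along most of their length and differ mainly in an acidic tail at the end, where motors, microtubule-associated proteins and modifying enzymes bind. Isotypes also differ in where they are used: Tuba1b, Tubb5 and Tubb4b are made in most cells, Tubb4b is also a main β-tubulin of cilia, Tubb3 is best known from neurons and Tubb4a from brain and oligodendrocytes.

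The isotypes are close to each other at the level of the transcript. In GENCODE M21 on GRCm38, the coding sequences of the 3 α isotypes were 97.12 to 98.3% identical. Of all stretches of 100 bases in the transcript, 65.1% in Tuba1a, 69.5% in Tuba1b and 53.4% in Tuba1c occurred without a mismatch in the transcript of another gene, mostly each other and pseudogenes. Reads from such stretches have to be divided between genes by an estimate, so the separate levels of the α isotypes are less certain than their sum. Tuba1a and Tuba1b also overlap the annotated gene Gm49450.

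The β isotypes were farther apart. The last 75 coding bases of 5 of them, the stop codon included, are given from the same annotation, because the acidic tail is encoded there. Capitals mark bases that differ from Tubb4b, the abundant isotype named alongside Tubb4a, or that have no counterpart in it. Missing bases carry no mark. They lie on the minus strand at chr17:57080690-57080764 for Tubb4a, chr2:25222308-25222382 for Tubb4b, chr17:35834982-35835056 for Tubb5 and chr13:34074468-34074542 for Tubb2a, and on the plus strand at chr8:123421608-123421682 for Tubb3.
Tubb4b: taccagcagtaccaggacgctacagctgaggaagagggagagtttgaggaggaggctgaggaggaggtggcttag
Tubb4a: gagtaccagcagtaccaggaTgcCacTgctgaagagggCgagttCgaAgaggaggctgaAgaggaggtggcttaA
Tubb5: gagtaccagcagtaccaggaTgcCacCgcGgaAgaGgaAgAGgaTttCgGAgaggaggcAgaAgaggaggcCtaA
Tubb2a: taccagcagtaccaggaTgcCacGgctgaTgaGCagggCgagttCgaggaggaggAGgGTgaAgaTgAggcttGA
Tubb3: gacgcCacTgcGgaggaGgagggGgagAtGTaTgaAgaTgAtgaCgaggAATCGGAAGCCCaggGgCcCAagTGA

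Tubb4a shared the end of its coding sequence with Tubb4b except at 8 bases, beside 3 bases fewer in length (1335 against 1338 coding bases), and yet differed from it at 222 bases over the whole coding sequence (83.18% identity). Tubb3 stood apart with 32 of 75 bases marked, but its coding sequence is longer than that of Tubb4b (1353 against 1338 bases). Added bases are marked and missing ones are not, so this count is not alike to that of Tubb4a. No stretch of 100 bases of the transcripts of Tubb4a, Tubb3, Tubb5 or Tubb6 occurred in another gene's transcript (0% each), so their reads are not split with other isotypes by identity of this length. Tubb2a and Tubb2b were 96.49% identical and shared 36.9% and 27.7% of their stretches, and 29.2% of those of Tubb4b occurred in its pseudogenes. Tubb3 overlaps the annotated gene Gm20388 and Tubb4b overlaps Fam166a, and whether the counting used strand is not given in the sources used here.

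Before the results, 2 libraries have to be named. IL-10 B-WT replicate 1 had the lowest mean Spearman correlation with the other lungs of its genotype (0.877, the others 0.909 to 0.952). Of its TPM, 0.248% were in immunoglobulin genes, against 1.02 to 15.4% in the other controls and at most 0.0652% in the knockouts, and its position on the first principal component (0.316) lay within the range of the knockouts (-0.147 to 0.395) and above the other controls. IL-10 B-WT replicate 5 had 30.5% of its TPM in mitochondrial genes (the others 4.63 to 15.8%). Il10 itself was too low to check the deletion, at 0 to 0.88 TPM in control lungs and 0 to 0.58 TPM in knockout lungs. The summed TPM of 10 B cell and plasma cell genes was 1244 to 44325 in control lungs, lowest in replicate 1, and 19.6 to 369 in knockout lungs. These are whole lungs, in which fewer cells of a type and less RNA per cell cannot be told apart.

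Tubb4a was lower in every knockout lung than in every control lung. In control lungs it was lowest at 8.42 TPM, with a median of 14.5 and a highest value of 17.4 (mean 13.9 ± 3.24, SD, n = 6). In knockout lungs it was lowest at 1.61 TPM, with a median of 4.80 and a highest value of 6.62 (mean 4.39 ± 1.74, SD, n = 6). The groups did not overlap, and the smallest gap lay between control replicate 1 and knockout replicate 4. The ratio of the means was 0.317, and the log2 fold change on the log2(TPM + 1) scale was -1.51 (SE 0.26). Among all 15148 genes tested, 71 (0.469%) were called lower in the knockouts, which asked for an adjusted p no higher than 0.05 and a log2 fold change of 1 or more in size, and 140 (0.924%) were lower without overlap. Of the 71, 39 were immunoglobulin genes or Jchain, and Tubb4a had the 12th largest fold change among the other 32. Since Tubb4a was chosen on this difference, nothing is read from its place in these counts.

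**Figure D1:**
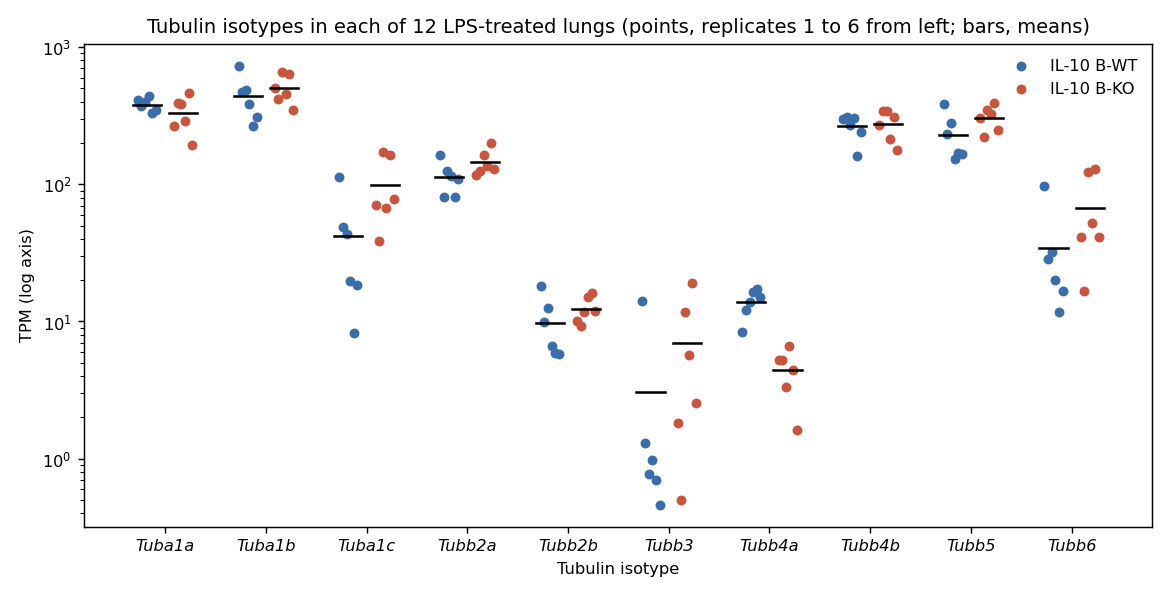
TPM (log axis) of each of the 10 tubulin isotypes in the 6 control and 6 knockout lungs, 1 point per lung with replicates 1 to 6 from left to right, and bars at the mean. Tubb4a is the isotype without overlap between genotypes (8.42 to 17.35 TPM against 1.61 to 6.62 TPM), whereas Tuba1c, Tubb3 and Tubb6 spread over the widest ranges within a genotype.

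None of the other 9 isotypes passed the test. Of these, 8 had a positive and 1 a negative log2 fold change, all 9 overlapped between genotypes, and their median log2 fold change was 0.40, against 0.10 over all genes tested. By limma with Benjamini-Hochberg adjustment, 0 of the 9 had an adjusted p no higher than 0.05, while 4 of all genes tested (0.0264%) were called higher. At a raw p no higher than 0.05, 1 of the 9 was higher and 0 were lower, where 6.83% of all genes tested were higher and 5.71% were lower.

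Tuba1c, the α isotype with the lowest level, had the largest difference of the 9. Its TPM was 8.2 to 113 in control lungs with a median of 31.7 (mean 42.0 ± 38.1, SD, n = 6), and 38.9 to 173 in knockout lungs with a median of 74.3 (mean 98.4 ± 55.7, SD, n = 6). All 6 knockout lungs lay above the control median, but only 2 of them lay above IL-10 B-WT replicate 1, the highest control. The log2 fold change was 1.48 (95% confidence interval 0.31 to 2.64), with an adjusted p of 0.328 by limma and an unadjusted p of 0.0411 by the two-sided exact permutation test. Without IL-10 B-WT replicate 1 the log2 fold change of Tuba1c was 1.85 and the adjusted p by limma was 0.0445, so that 1 lung decided the call. With IL-10 B-WT replicates 1 and 5 both left out it was 1.4998, with an adjusted p of 0.09999 by limma.

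Tubb6, a broadly made β isotype encoded on chromosome 18, and Tubb3, the β isotype known from neurons, spread as widely. Tubb6 was 11.7 to 97.8 TPM in control lungs with a median of 24.3, and 16.6 to 129 TPM in knockout lungs with a median of 46.9. Tubb3 was 0.46 to 14.2 TPM in control lungs with a median of 0.870, and 0.50 to 19.1 TPM in knockout lungs with a median of 4.14, and reached 1 TPM in 7 of the 12 lungs. For both genes IL-10 B-WT replicate 1 stood far above the other 5 controls, which did not exceed 31.9 TPM for Tubb6 and 1.29 TPM for Tubb3, and IL-10 B-KO replicates 3 and 5 were the highest of their group. The log2 fold changes were 0.98 (SE 0.54, adjusted p = 0.460 by limma, exact permutation p = 0.139) for Tubb6 and 1.07 (SE 0.68, adjusted p = 0.504 by limma, exact permutation p = 0.182) for Tubb3. Without IL-10 B-WT replicate 1 they were 1.35 and 1.58, with adjusted p-values of 0.101 and 0.105 by limma.

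Tubb5, a β isotype made in most cells, and the closely related Tubb2a and Tubb2b had smaller positive differences. Tubb5 was 154 to 383 TPM in control lungs and 220 to 393 TPM in knockout lungs (means 231 ± 89.1 and 307 ± 64.5, SD, n = 6 each). Tubb2a was 80.2 to 164 and 117 to 200 TPM (means 112 ± 31.2 and 145 ± 31.4), and Tubb2b was 5.78 to 18.3 and 9.31 to 16.2 TPM (means 9.82 ± 4.93 and 12.4 ± 2.73). In all 3 genes each of the 6 knockout lungs lay above the control median, and the ranges overlapped, with IL-10 B-WT replicate 1 as the highest control of each. The log2 fold changes were 0.46 (SE 0.24), 0.39 (SE 0.20) and 0.40 (SE 0.26), with adjusted p-values by limma of 0.441, 0.441 and 0.521 and exact permutation p-values of 0.0931, 0.0823 and 0.182.

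The isotypes with the highest levels differed least. Tuba1b, the most abundant isotype in both genotypes, had means of 441 ± 165 and 503 ± 123 TPM (SD, n = 6 each) and a log2 fold change of 0.23 (95% confidence interval -0.30 to 0.76, adjusted p = 0.688 by limma). Tubb4b had means of 265 ± 57.1 and 276 ± 68.0 TPM and a log2 fold change of 0.05 (-0.41 to 0.51, adjusted p = 0.926 by limma), whose sign turned under other scalings of the libraries. Tuba1a, the α isotype best known from developing neurons, had means of 382 ± 40.6 and 333 ± 99.6 TPM and a log2 fold change of -0.25 (-0.68 to 0.19, adjusted p = 0.593 by limma), with 3 knockout lungs below all controls and 1 above them. The intervals of these 3 genes leave out a change of 1 on the log2 scale in either direction, but do not show that the levels were alike.

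**Figure D2:**
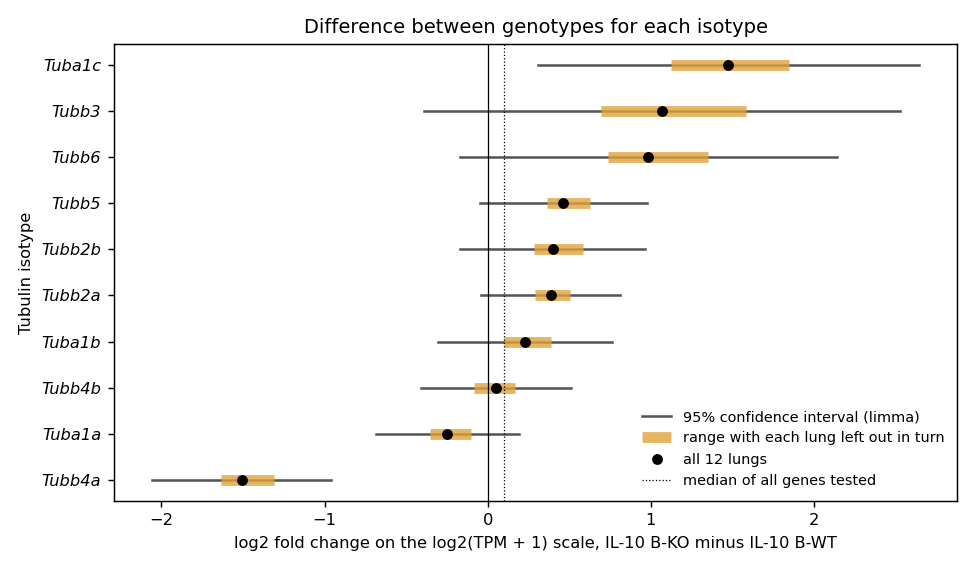
Log2 fold change on the log2(TPM + 1) scale (IL-10 B-KO minus IL-10 B-WT, x axis) of each isotype (y axis), with the limma 95% confidence interval as a line, the range with each lung left out in turn as a thick bar, and a dotted line at the median of all genes tested (0.10). Tubb4a lies at -1.51 away from the others, and Tuba1c at 1.48 has the only interval of the other 9 that excludes 0.

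The level of an isotype was compared with that of its neighbours within each genotype. In control lungs the order of the mean TPM was Tuba1b, Tuba1a, Tubb4b, Tubb5, Tubb2a, Tuba1c, Tubb6, Tubb4a, Tubb2b and Tubb3. In knockout lungs it was Tuba1b, Tuba1a, Tubb5, Tubb4b, Tubb2a, Tuba1c, Tubb6, Tubb2b, Tubb3 and Tubb4a. Tubb4a was thus eighth in the controls and last in the knockouts, where its order with Tubb3 was not settled, since it was lower than Tubb3 in 3 of 6 lungs and above it by the median.

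The neighbours were compared lung by lung with a two-sided exact sign-flip permutation test, which with 6 lungs cannot go below 0.03125. In the controls 4 neighbours kept the same order in 6 of 6 lungs and reached that value, namely Tuba1a above Tubb4b, Tubb5 above Tubb2a, Tubb2a above Tuba1c and Tubb2b above Tubb3. In the knockouts these were Tuba1b above Tuba1a, Tubb4b above Tubb2a, Tuba1c above Tubb6 and Tubb6 above Tubb2b. Adjusted over the 9 pairs of a genotype the smallest permutation p was 0.0703, so no pair of neighbours passed. With 4 pairs at the lowest p this test can give, the adjusted p could not be lower, so the order of those 4 was not decided. In the controls the largest exact permutation p were those of Tubb4b with Tubb5, Tuba1c with Tubb6 and Tuba1b with Tuba1a (0.3125 to 0.5625). In the knockouts they were those of Tubb4b with Tubb5, Tuba1a with Tubb5 and Tubb3 with Tubb4a (0.4375 to 0.875).

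The summed TPM of the 10 isotypes was 1052 to 2237 in control lungs (mean 1534 ± 410, SD, n = 6) and 1232 to 2336 in knockout lungs (mean 1753 ± 431, SD, n = 6), or 0.106 to 0.235% of a library. The sums overlapped over most of their range. The α sum had means of 865 ± 227 and 934 ± 254 TPM, and the β sum of 669 ± 184 and 819 ± 178 TPM. The ratio of α to β was 1.30 ± 0.056 in the controls (1.221 to 1.361) and 1.13 ± 0.078 in the knockouts (1.007 to 1.216), values that did not overlap although the gap was 1.221 against 1.216. No test was made of these sums, which run over chosen genes.

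Within the α sum, Tuba1a held 45.8 ± 8.19% in control lungs and 35.6 ± 5.64% in knockout lungs, and Tuba1c held 4.28 ± 2.78% and 10.2 ± 3.68% (SD, n = 6 each). Within the β sum, Tubb4a held 0.855 to 3.88% in the controls and 0.262 to 0.873% in the knockouts, so that as a share its groups overlapped by IL-10 B-WT replicate 1. Tubb4b held 40.4 ± 7.19% and 34.0 ± 7.43%, Tubb5 held 34.0 ± 5.62% and 37.7 ± 4.596%, and Tubb6 held 4.56 ± 2.72% and 7.63 ± 3.87%. In this respect IL-10 B-WT replicate 1 lay within the range of the knockouts, with 9.02% Tuba1c and 9.94% Tubb6, and IL-10 B-KO replicate 2 lay within or below that of the controls, with 4.59% and 2.30%.

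**Figure D3:**
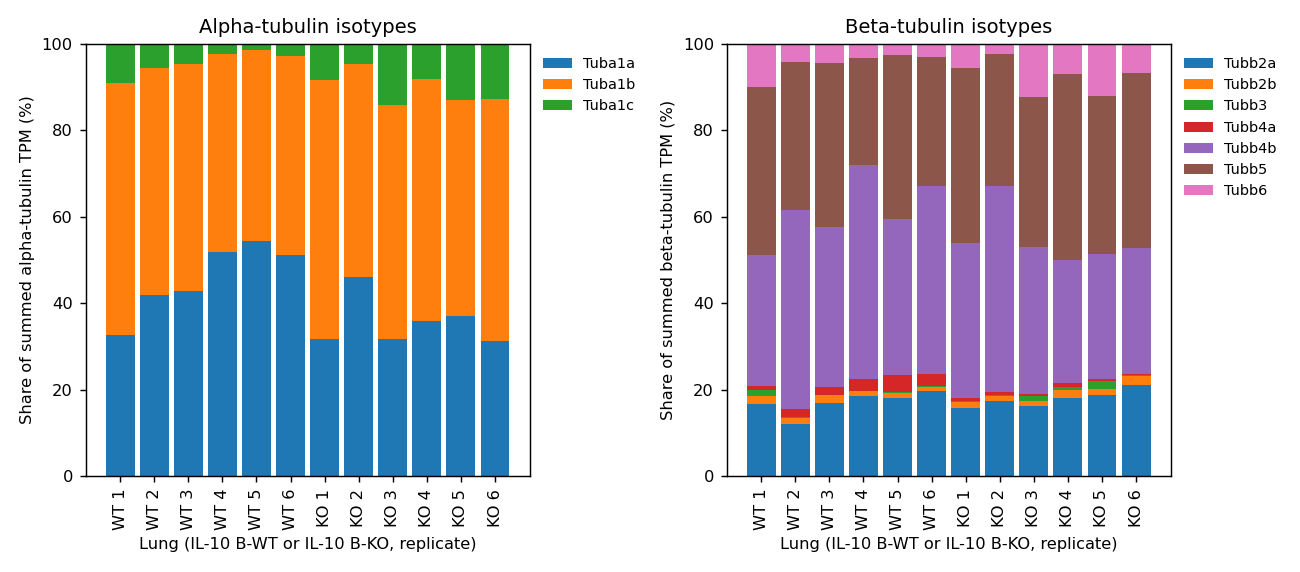
Share (%) of the summed α-tubulin TPM (left) and β-tubulin TPM (right) taken by each isotype in each of the 12 lungs, as stacked bars with IL-10 B-WT replicates 1 to 6 followed by IL-10 B-KO replicates 1 to 6. The Tuba1c share ranges from 1.36 to 9.02% in controls and from 4.59 to 14.2% in knockouts.

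Lungs of the same genotype differed among themselves, and these differences were not used to choose any isotype. Each isotype was therefore related to the mean log2(TPM + 1) of 8 marker lists after both were centred on their genotype mean (12 lungs, exact permutation within genotype, 518400 arrangements, Benjamini-Hochberg over 80 relations). Of the 80, 30 had an adjusted p no higher than 0.05, and 15 after each library was also centred on its median, a step that removes differences shared by most genes of a library. All values of a library share 1 total and its RNA quality, so that these relations do not tell which cells held the transcript.

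The neuronal or neuroendocrine, Schwann cell and oligodendrocyte, and cardiomyocyte genes described below were not among the 8 lists related. Among those 8, Tubb4a gave its highest r with genes of the vessel wall. Its relation to the list of 15 pericyte genes, such as Pdgfrb, Notch3 and Higd1b, gave a Pearson r of 0.72 (permutation p = 0.0137, adjusted 0.0412) and a Spearman rho of 0.59 (permutation p = 0.0582, adjusted 0.129). Without the 2 lungs farthest from the median of the list r was 0.70, and with centring on the library median it was 0.85 (adjusted permutation p = 0.0158). The relation to 10 smooth muscle genes, such as Acta2 and Myh11, had the same r of 0.72 (adjusted permutation p = 0.0412) with a rho of 0.46 (adjusted 0.290). It fell to 0.23 without control replicate 1 and knockout replicate 6 and so rests on those lungs. With centring on the library median r with smooth muscle genes was 0.81 (adjusted permutation p = 0.0275). For endothelium r was 0.59 (adjusted permutation p = 0.123), and 0.80 with centring (adjusted 0.0398). With multiciliated, cycling, fibroblast, neutrophil and macrophage or monocyte genes Tubb4a gave r between -0.60 and 0.36, none past the threshold by r. By rank the negative relation to macrophage or monocyte genes did pass (rho -0.73, adjusted permutation p = 0.0381). Its r was -0.57 (adjusted permutation p = 0.103), -0.36 without control replicates 1 and 5, and -0.72 with centring (adjusted 0.0640).

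The pericyte list moved in the same direction as Tubb4a between genotypes. All 15 of its genes had a negative log2 fold change, 6 were called lower, the median was -1.38, and the summed TPM was 519 to 1236 in controls and 144 to 571 in knockouts. The 6 were Pdgfrb, Notch3, Trpc6, Gucy1a1, Gucy1b1 and Pde5a, where 0.469% of all genes tested were called lower. A raw p no higher than 0.05 by limma was reached by 12 of the 15, but not by Abcc9, Rgs5 and Kcnj8 (log2 fold changes -0.45, -0.25 and -0.17). Earlier results of these data were known when the list was chosen, so nothing is read from these counts. All 10 smooth muscle genes had negative log2 fold changes too (median -0.90), of which limma called 0 and 7 had a raw p no higher than 0.05. The same held for all 12 endothelial genes (median -0.39), with 0 called by limma and 3 at a raw p no higher than 0.05. Over all genes tested 6.83% were higher and 5.71% lower at that raw p, and 0.924% were lower without overlap. Of 8 Schwann cell and oligodendrocyte genes 5 were high enough to test, with a median of 0.34 and a summed TPM of 22.3 to 36.4 in controls and 23.9 to 37.4 in knockouts. Of 12 neuronal or neuroendocrine genes 4 were high enough, with 2 positive and 2 negative log2 fold changes, 0 called by limma and 1 in each direction at a raw p no higher than 0.05. Gap43, a growth cone protein and the most abundant of them, was 10.1 to 34.1 TPM in controls and 1.86 to 9.97 TPM in knockouts, without overlap (log2 fold change -1.88, adjusted p = 0.0590 by limma), and Uchl1 was 3.87 to 8.55 and 6.30 to 16.0 TPM (log2 fold change 0.71, adjusted p = 0.278 by limma), whereas Elavl3 and Nefl were under 0.1 TPM in every lung. All 10 genes of the cardiomyocytes around pulmonary veins also had negative log2 fold changes (median -1.17), of which limma called 0 and 2 had a raw p no higher than 0.05, with a summed TPM of 81.0 to 1925 in controls and 33.6 to 522 in knockouts. The part of these cell types in the level of Tubb4a was not tested.

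**Figure D4:**
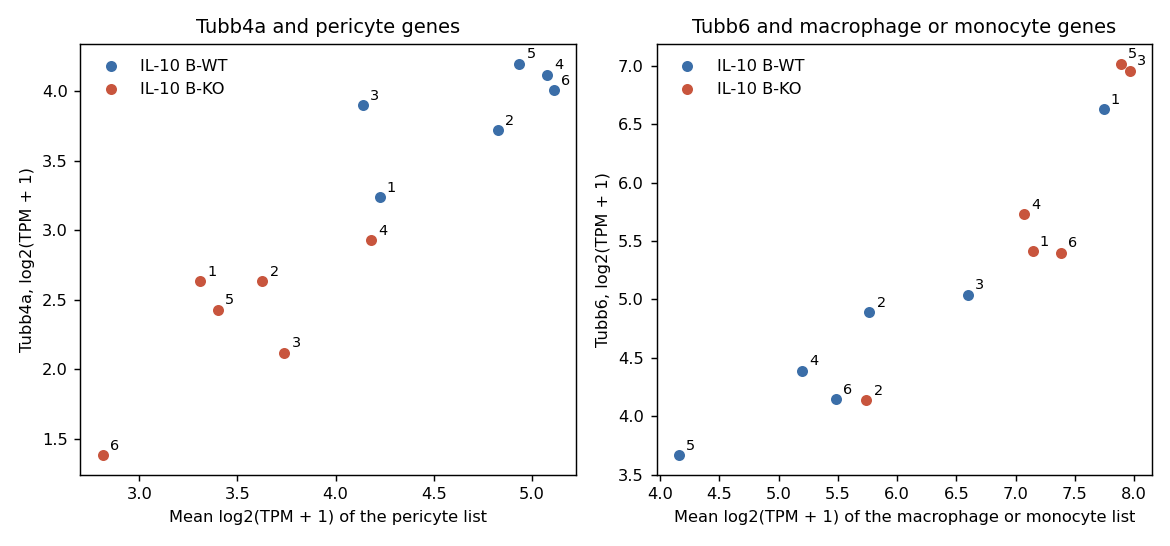
Left, log2(TPM + 1) of Tubb4a against the mean log2(TPM + 1) of the pericyte list, and right, that of Tubb6 against the macrophage or monocyte list, with 1 point per lung numbered by replicate. Among lungs of the same genotype r was 0.72 on the left and 0.92 on the right, and on the right IL-10 B-WT replicate 1 sits with IL-10 B-KO replicates 3 and 5 at the upper end.

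Tuba1c, Tubb6, Tubb3 and Tubb5 were among the isotypes that ran with genes of inflammatory cells. Tubb6 gave r of 0.92 with 10 macrophage or monocyte genes (adjusted permutation p = 0.00247, rho 0.90), 0.90 without the 2 lungs farthest from the median and 0.89 with centring. Tuba1c gave r of 0.95 with the same list (adjusted permutation p = 0.00247, rho 0.92), 0.88 without the 2 farthest and 0.92 with centring. Tubb3 gave r of 0.78 (adjusted permutation p = 0.0110, rho 0.57, adjusted 0.115), 0.73 without the 2 farthest and 0.73 with centring. Tubb5 gave r of 0.88 (adjusted permutation p = 0.00498, rho 0.86) and 0.83 without the 2 farthest, but 0.58 with centring (adjusted 0.159). Tubb6, Tuba1c and Tubb3 ran against the endothelial list, with r of -0.91 for Tubb6, -0.88 for Tuba1c and -0.86 for Tubb3 (adjusted permutation p of 0.00494, 0.00376 and 0.00498). So did Tubb5 (-0.80), Tuba1b (-0.77) and Tubb2b (-0.73), with adjusted permutation p of 0.0173, 0.0232 and 0.0322. With centring, Tubb6 (-0.84, adjusted 0.0105) and Tuba1c (-0.96, adjusted 0.00139) still passed. Tubb3 (-0.68, adjusted 0.0650), Tubb5, Tuba1b and Tubb2b did not. Between genotypes all 10 macrophage or monocyte genes had positive log2 fold changes (median 1.42), of which limma called 0. At a raw p no higher than 0.05, 8 of them were higher, against 6.83% of all genes tested. The summed TPM of the 10 was 769 to 13663 in controls and 3833 to 12195 in knockouts. The highest of these sums was that of IL-10 B-WT replicate 1, and the part of these cells in the isotypes' levels was not tested.

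Genes of cycling cells and neutrophils gave further relations. Tuba1c gave r of 0.91 with 14 genes of cycling cells (adjusted permutation p = 0.00498, rho 0.85) and 0.85 with centring (adjusted 0.0275), and Tubb6 gave 0.82 (adjusted permutation p = 0.00494, rho 0.85) and 0.74 with centring (adjusted 0.0275). Tubb5 gave r of 0.91 with the same 14 genes (adjusted permutation p = 0.00494, rho 0.79), and 0.92 without the 2 farthest lungs, but 0.64 with centring (adjusted 0.154). Tubb2a gave r of 0.85 with 10 neutrophil genes (adjusted permutation p = 0.00440, rho 0.87), 0.87 without the 2 farthest and 0.67 with centring (adjusted 0.0485). It also passed with macrophage or monocyte genes (0.78), but not with centring (0.26). With neutrophil genes Tubb6 (0.85), Tubb3 (0.81), Tuba1c (0.77) and Tubb2b (0.66) passed too, of which only Tubb6 passed with centring (0.78, adjusted 0.0457). Tubb3 also passed with cycling genes (0.66), but not with centring. With fibroblast genes Tubb6 (0.74), Tubb3 (0.70), Tuba1b (0.65) and Tuba1c (0.64) passed, and none of them with centring. Tuba1b passed with macrophage or monocyte (r of 0.83), cycling (r of 0.82), endothelial (r of -0.77) and fibroblast genes, and with none of these after centring. Tubb2b passed with cycling (r of 0.87) and macrophage or monocyte genes (r of 0.85), and with neither after centring (0.63 and 0.58). Its relations to endothelial (-0.73) and neutrophil genes (0.66) also passed, and neither did after centring. With multiciliated genes no isotype passed before centring. After it, negative relations passed for Tubb6 (-0.77, adjusted 0.0450), Tuba1c (-0.75, adjusted 0.0434) and Tubb2b (-0.75, adjusted 0.0434). Before centring their r was -0.46, -0.31 and -0.54. Tuba1a and Tubb4b passed with none of the 8 lists. Tubb4b, a main tubulin of cilia, gave r of 0.53 with the 14 multiciliated cell genes high enough to test (adjusted permutation p = 0.195, rho 0.55). With centring it gave 0.65 (adjusted 0.140), so that a relation was not detectable in these lungs.

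**Figure D5:**
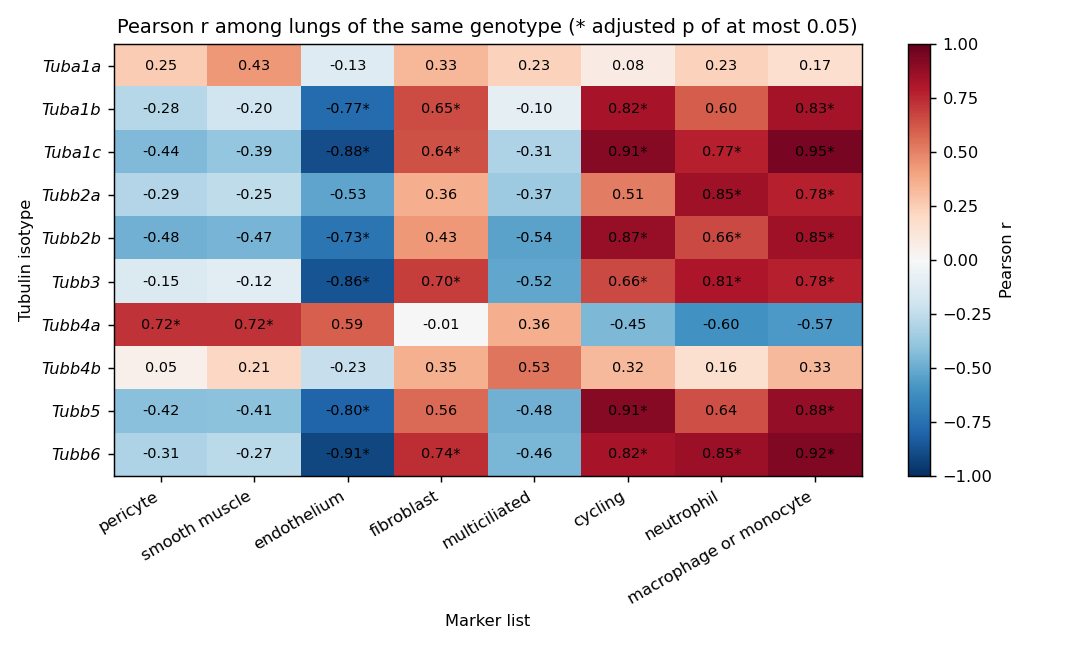
Pearson r between each isotype (y axis) and each of 8 marker lists (x axis) among lungs of the same genotype (12 lungs, both measures centred on the genotype mean), with red for positive, blue for negative, and a star at an adjusted permutation p no higher than 0.05. Tubb4a has its stars with pericyte and smooth muscle genes, which no other isotype has, and Tuba1a and Tubb4b have none.

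The isotypes were next related to each other in the same way, a comparison added after the relations to the lists had been seen. Of 45 pairs, 22 had an adjusted permutation p no higher than 0.05, and 11 with centring on the library median. Tuba1c with Tubb6 (r of 0.94, 0.91 with centring) and Tubb3 with Tubb6 (0.94 and 0.94) were the closest, followed by Tubb2b with Tubb5 (0.93 and 0.87). Tuba1a went with Tubb4b (0.78 and 0.77, adjusted permutation p = 0.00610). Tubb4a and Tuba1c ran in opposite directions, with an r of -0.55 (adjusted permutation p = 0.0843) and a rho of -0.75 (adjusted 0.0230) in the values as deposited, an r of -0.76 with centring (adjusted 0.0442), and an r of -0.34 without IL-10 B-WT replicates 1 and 5. Tuba1b with Tubb2a and Tuba1c with Tubb2a (0.72 each) fell to 0.44 each without IL-10 B-WT replicates 1 and 5, Tubb2a with Tubb3 fell from 0.78 to 0.40 without control replicate 1 and knockout replicate 5, and Tuba1a with Tuba1b fell from 0.58 to 0.42 without IL-10 B-KO replicates 5 and 6, so that these 4 relations rest on those lungs.

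The genes whose values ran closest to each isotype among lungs of the same genotype were found by Pearson r over the 12 lungs, as a description. For Tubb4a they were Kcnk3 (0.94), which encodes a potassium channel, Nkain4 (0.94), Apod (0.91), which encodes a lipid-binding protein, Tbx2 (0.89), a transcription factor of the lung mesenchyme, and Vsnl1 (0.89), which encodes a calcium sensor. Kcnk3 was 16.6 ± 6.19 TPM in controls and 5.26 ± 3.97 TPM in knockouts, and Vsnl1 was 13.9 ± 6.57 and 3.20 ± 2.62 TPM (SD, n = 6 each), with adjusted p-values by limma of 0.119 and 0.0833. For Tubb6 they were Ccl2 (0.99), the monocyte chemokine, Dse (0.99) and B4galt1 (0.98), and for Tubb3 they were Fbn1, Timp1 and Sfrp1 (0.97 each), which encode proteins of or around the extracellular matrix. Ccl2 was 21.3 ± 42.0 TPM in controls and 88.5 ± 107 TPM in knockouts, so that its spread was larger than its mean.

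For the other isotypes, Tuba1c ran with Mcur1, E2f4 and Slc35e1 (0.99 each), Tuba1b with Ostc (0.97), Igsf3 and Ddost (0.96 each), and Tuba1a with Mboat1 (0.92), Aig1 (0.89) and Rcn1 (0.87). Tubb5 ran with Mtfr2 (0.97), Gm47761 and Clpb (0.96 each), Tubb4b with Pebp1 (0.97), Ruvbl2 and Acat1 (0.96 each), Tubb2a with Acer3 (0.96), Adgrg3 and Tagln2 (0.94 each), and Tubb2b with Gm48493 (0.95), Gm28177 and Gvin2 (0.94 each). None of these neighbours had an adjusted p no higher than 0.05 between genotypes by limma.

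The other tubulin genes had low to moderate levels. Of 10, 7 could be tested, with 5 positive and 2 negative log2 fold changes (median 0.23), 0 called by limma and 1 lower at a raw p no higher than 0.05, and Tuba3a and Tuba3b were under 0.1 TPM in every lung. At that raw p 5.71% of all genes tested were lower. Tuba4a, an α isotype that is made already detyrosinated, was 45.0 ± 26.4 TPM in controls and 63.3 ± 22.4 TPM in knockouts (log2 fold change 0.62, adjusted p = 0.480 by limma). Tubg2, a γ-tubulin of the nucleating ring complex, was 1.79 ± 0.189 and 1.10 ± 0.331 TPM (log2 fold change -0.43, adjusted p = 0.300 by limma). Tuba8 was 4.04 ± 1.30 and 5.17 ± 1.46 TPM (log2 fold change 0.31, adjusted p = 0.545 by limma).

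New tubulin is folded by the CCT chaperonin, prefoldin and the tubulin cofactors. All 23 genes of this list were tested, and 22 had positive log2 fold changes (median 0.26, against 0.10 over all genes). By limma 0 were called, and 2 were higher at a raw p no higher than 0.05, as were 6.83% of all genes tested. Tbce, the cofactor that binds α-tubulin, was 37.4 ± 11.4 TPM in controls and 66.7 ± 21.7 TPM in knockouts (log2 fold change 0.82, adjusted p = 0.231 by limma). Tbcb, its partner on α-tubulin, was 49.2 ± 14.9 and 70.9 ± 12.0 TPM (log2 fold change 0.56, adjusted p = 0.332 by limma), and Cct3, a chaperonin subunit, was 60.8 ± 15.6 and 80.3 ± 18.6 TPM (log2 fold change 0.41, adjusted p = 0.445 by limma).

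Of 28 genes for enzymes that modify tubulin 23 were tested and 0 were called by limma, with 1 higher at a raw p no higher than 0.05 and with 14 positive and 9 negative log2 fold changes (median 0.05). At that raw p 6.83% of all genes tested were higher. Tpgs1, a subunit of the polyglutamylase, had a log2 fold change of 0.50 (adjusted p = 0.375 by limma), Hdac6, the tubulin deacetylase, of 0.44 (adjusted p = 0.467 by limma), and Ttll11, a polyglutamylase, of 0.36 (adjusted p = 0.477 by limma). Of the 3, Tpgs1 was the one past the raw threshold (41.3 ± 12.0 TPM in controls and 56.8 ± 7.77 TPM in knockouts, SD, n = 6 each).

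Of 35 genes for microtubule-associated proteins 32 were tested, with 15 positive and 17 negative log2 fold changes (median -0.01). By limma 0 were called, and 1 was higher and 3 were lower at a raw p no higher than 0.05. At that raw p 6.83% of all genes tested were higher and 5.71% were lower. The lowest p-values belonged to Map6 and Mapt, which stabilize microtubules and are known from neurons. Map6 was 25.5 to 34.3 TPM in controls and 14.99 to 24.56 TPM in knockouts, without overlap (log2 fold change -0.63, adjusted p = 0.0843 by limma). Of all genes tested 0.924% were lower without overlap. Mapt was 18.1 to 60.4 and 10.8 to 31.7 TPM, overlapping through IL-10 B-WT replicate 1 (log2 fold change -1.04, adjusted p = 0.195 by limma). Mid1, a ubiquitin ligase on microtubules, was 9.18 ± 4.85 and 17.0 ± 4.38 TPM (log2 fold change 0.94, adjusted p = 0.287 by limma).

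Cells also tune tubulin mRNA to the amount of free tubulin, through TTC5, which reads the first residues of nascent tubulin, and SCAPER and the CCR4-NOT complex, which then remove the mRNA. All 4 genes of this list were tested and 0 were called by limma or had a raw p no higher than 0.05 (median 0.09). Cnot1 had a log2 fold change of 0.31 (adjusted p = 0.534 by limma), Cnot11 of 0.13, Scaper of 0.05 and Ttc5 of 0.00, with 22.7 ± 3.18 TPM of Ttc5 in controls and 22.8 ± 4.21 TPM in knockouts.

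The pathway annotation deposited with the values places all 10 isotypes in the KEGG pathways Gap junction and Phagosome. It also places all 10 in Salmonella infection and in the Alzheimer, Parkinson, Huntington, prion and amyotrophic lateral sclerosis pathways. Among all genes tested, 0.469% were called lower and 0.0264% higher. Of 71 tested genes of Gap junction, 4 were called, namely Tubb4a with Pdgfrb, the receptor that marks pericytes, and Gucy1a1 and Gucy1b1, the subunits of the nitric oxide receptor guanylate cyclase, all lower in the knockouts. Of 135 tested genes of Phagosome, 1 was called, which was Tubb4a. Of 226 tested genes of Salmonella infection, 2 were called, Tubb4a and Wasf3. In each of the named disease pathways, with 221 to 319 tested genes, 1 was called, again Tubb4a. The 3 α isotypes alone were also placed in Tight junction and Apoptosis. In these pathways, too, Tubb4a is counted by the difference that chose it.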

How the data were processed

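RNA-seq libraries of 12 whole lungs (6 controls, IL-10 B-WT, against 6 knockouts, IL-10 B-KO) were analyzed from 1 table. The authors deposited TPM per gene, 1 column per library without pooling. Per the labels, fastp, HISAT and RSEM and the build GRCm38.p5 were named in the submitters' processing notes, with no versions. The columns summed to 991646 to 994430 TPM. TPM keeps no depth, so the reads behind a value are unknown, a counting error cannot be given, and models for counts were not used. Nothing in the labels marks batches, and they name no litter or culture beyond 1 mouse per lung.

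Genotypes were compared with limma 3.58.1 in R 4.3.3 (lmFit, then eBayes with a trend) on log2(TPM + 1). The model held genotype alone and covered the 15148 genes that reached 1 TPM in 6 or more libraries. Benjamini-Hochberg adjustment ran over all of them, and called genes had an adjusted p no higher than 0.05 together with a log2 fold change of 1 or more in size. Fold changes on this scale understate those of low genes. The fit was tested on simulated data. Exact permutation tests used 924 arrangements, with 0.00216 as the smallest p, and were two-sided. Relations among lungs were computed in Python 3.11.15 with SciPy 1.17.1. Sequences and positions came from GENCODE M21, which matched 10 of the 10 isotypes by ID, and sequences of the α isotypes are not reported here.

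The isotypes and all gene lists were chosen with earlier results of these data known. Named with values were the isotypes, called genes and the up to 3 genes of lowest p in each tubulin list, the 3 genes most like each isotype (5 for Tubb4a), examples of described marker lists, and Il10. Replicate numbers of the genotypes did not pair the lungs. Other filters, pseudocounts, scalings and weights and the omission of each lung were tried.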

Additional observations from a re-analysis of the deposited data

Results flagged for a closer look

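Of 20 groups of 6 lungs (10 isotypes in each genotype), 2 held a lung that stood apart by Dixon's test on TPM without a log. For normally distributed values and independent groups chance gives about 1 group in 20. These groups share the same 12 lungs, and TPM need not be normally distributed, so that rate is only a rough guide. Tubb3 was 14.18 TPM in IL-10 B-WT replicate 1 and at most 1.29 TPM in the other 5 controls, a gap of 0.940 of the range. Tubb6 was 97.84 TPM in IL-10 B-WT replicate 1 and at most 31.91 TPM in the other 5, a gap of 0.765 of the range. Both values belong to the same lung, which also held the highest summed TPM of macrophage or monocyte genes of all 12 lungs (13663). The part of those cells in these values was not tested.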

How the results depend on the processing

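The 75 genes called in all became 6 without a filter, 27 after rescaling without immunoglobulin genes, 39 with quantile normalization, 36 with median centring, 318 with array quality weights and 45 with a replicate block, and ranged from 15 to 576 over the omission of single lungs. The count of isotypes past the threshold was 1, Tubb4a, which was chosen on these values, so that its kept or lost calls support nothing. It became 0 without a filter, with quantile normalization, with median centring and with the replicate block, 2 by the raw p alone, and 0 to 2 with each lung left out. The correlation of the 6 same-numbered pairs of lungs was -0.292 to 0.0458, so the numbers were not taken as pairs. Tubb4a kept its direction throughout, with log2 fold changes of -1.63 to -1.31 with each lung left out. Tuba1c passed the threshold only without IL-10 B-WT replicate 1, the omission that gave the 576 called genes. The log2 fold change of Tubb4b turned from 0.05 to -0.00286 without immunoglobulin genes, -0.15 with quantile normalization, -0.0546 with median centring, -0.15 with array weights and -0.0659 without IL-10 B-WT replicates 1 and 5, a setting chosen after seeing the data, and ranged from -0.0827 to 0.17 with each lung left out. Of 209 alternative fold changes of the isotypes 190 kept their direction and side of the threshold. With median centring the relations to lists past the threshold went from 30 to 15 and the pairs of isotypes from 22 to 11. The causes were not tested, except that fewer lungs enter when some are left out. Tubb3 had no value under a mean TPM of at least 5, and relations without the 2 farthest lungs were given no p. The summed TPM was higher in knockouts by 219, by 157 without immunoglobulin genes and by 103 to 360 with each lung left out.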
